A study of Mus musculus with 19 samples.

Results

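The entries described here are the least certain names in the small RNA tables of a mouse heart study: microRNAs predicted from the reads, pieces of known microRNA precursors other than the named mature strand, and the entries of precursors Mir6236 and Mir6240. They were taken by name from both deposited tables, as every entry that starts with PC- (predicted), every entry that starts with the lower-case mmu-mir- (precursor-derived), and any entry named for Mir6236 or Mir6240. This gave 82 of the 641 entries, of which 53 were predicted, 25 were precursor-derived and 4 belonged to precursors Mir6236 and Mir6240. Of the 82, 61 stood in both tables, 7 only in the table of isoproterenol against control, and 14 only in the table of both drugs against isoproterenol, and no entry of 1 table only reached more than 22 reads in a heart.

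All mice were male, wild-type C57BL6/J animals of 12 weeks of age, and whole hearts were taken at 21 days, 1 library per mouse. Controls (n = 6) received sterile saline from a miniosmotic pump. The isoproterenol group (n = 6) received isoproterenol, a beta-adrenergic agonist, from the pump at 30 mg/kg a day, and the third group (n = 7) received the same infusion plus minocycline, a tetracycline antibiotic, at 50 mg/kg a day by intraperitoneal injection. No vehicle injection is named for the other groups. In whole hearts, fewer cells of a type and less RNA per cell cannot be told apart. Hearts are named by their animal number.

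A microRNA is cut from a hairpin precursor by the nucleases Drosha and Dicer, and either arm of the hairpin can give the mature strand that is loaded into Argonaute. The seed, bases 2 to 8 of the mature strand, pairs with target messages, so a read that starts a base earlier or later than the named strand carries another seed. Annotation programs add entries when reads fall on a hairpin outside the named strand, or on a sequence that could fold into one, and fragments of ribosomal, transfer or mitochondrial RNA and of repeats can enter a table in the same way. Precursors Mir6236 and Mir6240 are known as names of this doubtful kind, because their sequence resembles large ribosomal RNA. The authors filtered out common structural RNA families (rRNA, tRNA, snRNA and snoRNA) as well as repeats, per the labels' protocols, and no large nuclear ribosomal RNA sequence was compared here.

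The 4 entries of precursors Mir6236 and Mir6240 held more reads than either of the other classes, and the place of the Mir6240 entries, which held most of these reads, is shown first. In the hairpin below, as given by GENCODE M21 on GRCm38, the capitals mark the stretches that the entries cover.
Mir6240: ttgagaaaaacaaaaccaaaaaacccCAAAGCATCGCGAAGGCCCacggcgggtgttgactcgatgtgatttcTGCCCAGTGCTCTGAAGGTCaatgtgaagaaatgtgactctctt
mmu-miR-6240_L-1R-6: caaagcatcgcgaaggccc
mmu-mir-6240-p3_1ss17GT: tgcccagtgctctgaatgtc
Mir6240 lies at chr5:114851948-114852064 on the plus strand and is annotated as a microRNA gene. The commonest entry of all, mmu-mir-6240-p3_1ss17GT, did not match its hairpin exactly: it carried the substitution G17T, counted from 1 at the 5′ end of the entry. The entry mmu-miR-6240_L-1R-6 lay wholly within the mature strand that RefSeq gives for the precursor, starting 1 base later and ending 6 bases earlier. In contrast, mmu-mir-6240-p3_1ss17GT shared no base with that strand.

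A second set of sequences shows how close several doubtful names lie to well-known microRNAs. Capitals mark the longest stretch that an entry shares with the RefSeq mature strand (GRCm38.p6) printed under it.
mmu-mir-142a-p5: ccCATAAAGTAGAAAGCACT
mmu-miR-142a-5p: CATAAAGTAGAAAGCACTact
mmu-mir-341-p3: TCGATCGGTCGGTCGGTcagt
mmu-miR-341-3p: tcggTCGATCGGTCGGTCGGT
mmu-mir-690-p3: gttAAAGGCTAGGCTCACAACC
mmu-miR-690: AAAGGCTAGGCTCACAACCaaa
mmu-mir-3970-p5_1ss7TA: TGAGGTAGTAGTTTGTGCTt
mmu-let-7i-5p: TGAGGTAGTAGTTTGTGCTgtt
PC-3p-2555_1049: ATCACATTGCCAGGGATTTtt
mmu-miR-23a-3p: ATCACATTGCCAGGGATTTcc
PC-3p-16999_73: TGAGGTAGTAGTTTGTACAaa
mmu-let-7g-5p: TGAGGTAGTAGTTTGTACAgtt
The entry mmu-mir-142a-p5, at chr11:87756865-87756884 in Mir142, started 2 bases before the mature 5p strand of miR-142a, a microRNA of blood-forming cells, and shared 18 bases with it. The entry mmu-mir-341-p3, at chr12:109611560-109611580 in Mir341, started 4 bases after the mature 3p strand. Mir341 lies in the imprinted Dlk1-Dio3 cluster of maternally expressed microRNAs. The entry mmu-mir-690-p3 started 3 bases before miR-690, and the same bases stood in 14 GENCODE genes, so its place in the genome is not unique. The entry mmu-mir-3970-p5_1ss7TA matched its own hairpin only after its substitution T7A was undone, whereas it differed from let-7i-5p, an abundant tumour-suppressing microRNA of the let-7 family, by 1 edit. PC-3p-2555_1049 and PC-3p-16999_73 shared their first 19 bases, seed included, with miR-23a-3p and let-7g-5p respectively and differed only at their last bases.

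Over the 29 entries that name a precursor, 28 were found in their own GENCODE hairpin as written or after undoing the substitution that 12 of them carry in their name. The RefSeq set used here holds a mature strand for 22 of these 28. That set is incomplete: it holds no strand of Mir328, for example, although miR-328-3p is an entry of the tables. In 15 of the 22 the entry shared at least 10 bases with that strand, in 1 it shared 9, and in 6 it shared none. Of the 15, 1 entry, mmu-mir-3102-p3, started at the same base, and it was identical to the RefSeq strand miR-3102-3p over all 23 bases. The other 14 started 1 to 12 bases away. None of the 53 predicted entries was found in a GENCODE microRNA hairpin. Of them, 12 lay within 2 edits of another entry of the tables or of a mature strand in that RefSeq set. These 12 included look-alikes of let-7b-5p, let-7g-5p and let-7i-5p. The seed of 17 of the 82 entries equalled that of at least 1 entry outside the 3 classes.

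Some entries also matched RNA other than a microRNA precursor. The entry mmu-mir-3102-p3, with 8447 reads, matched a retained intron of Arhgef17 as well as Mir3102. Whether that transcript holds the Mir3102 hairpin itself was not checked, so this match need not be RNA apart from the precursor. PC-3p-46577_10 matched mt-Rnr1, the mitochondrial small ribosomal RNA, exactly and held 10 reads. The entry mmu-mir-6481-p3_1ss19GA matched mt-Tf, the mitochondrial transfer RNA for phenylalanine, exactly as deposited, whereas it differed from its own hairpin by G19A, and it held 51 reads. PC-3p-30776_24 matched Gm42418, a long noncoding gene model, and held 24 reads. PC-5p-61093_6 matched a pair of long noncoding gene models and mmu-mir-3535-p3 matched Ncl and a small nucleolar RNA besides its own hairpin, with 6 and 5 reads. The entries mmu-mir-3470a-p5_1ss18TC, mmu-mir-1934-p3_1ss8TA and mmu-mir-8111-p5_1ss13GA matched 287, 183 and 67 GENCODE genes respectively and held 22, 26 and 5 reads. Positions of the predicted entries in the genome were not worked out here.

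The entries were short. Lengths ran from 18 to 24 bases with a median of 20, against a median of 22 over the 559 other entries. Of the 82, 31 (37.8%) were 21 to 23 bases long, the usual length of a microRNA, against 88.0% of the others, and 28 (34.1%) were shorter than 20 bases against 3.22%. The median length was 20 bases for predicted entries and 21 for precursor-derived entries. None of the 4 entries of Mir6236 and Mir6240 was 21 to 23 bases long, and their lengths were 18, 19, 20 and 24. A first base T (U in RNA), the base that Argonaute favours, stood in 49.1% of predicted, 20% of precursor-derived and 40.3% of other entries. Counted by reads rather than by entries, 78.9% of predicted reads, 49.5% of precursor-derived reads and 90.1% of the reads of other entries were 21 to 23 bases long. These shares rest on few entries, because 1 entry alone held 54.0% of predicted reads.

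Summed over the 19 hearts, the 82 entries held 83884 reads. The 4 entries of Mir6236 and Mir6240 held 41071, the 53 predicted entries 21211 and the 25 precursor-derived entries 21602. Reads were concentrated in a few names. The entry mmu-mir-6240-p3_1ss17GT held 32067 reads, PC-3p-966_5189 held 11451, mmu-mir-142a-p5 held 10280, mmu-mir-3102-p3 held 8447 and mmu-mir-6236-p5 held 6253. The 5 largest predicted entries held 86.8% of the reads of their class, and the 5 largest precursor-derived entries 94.5%. At the other end, 50 of the 82 entries held at most 50 reads over all hearts, and 28 held at most 10. The number that ends a predicted name equalled the summed reads in 37 of 53 names and was below them in 16.

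**Figure D1:**
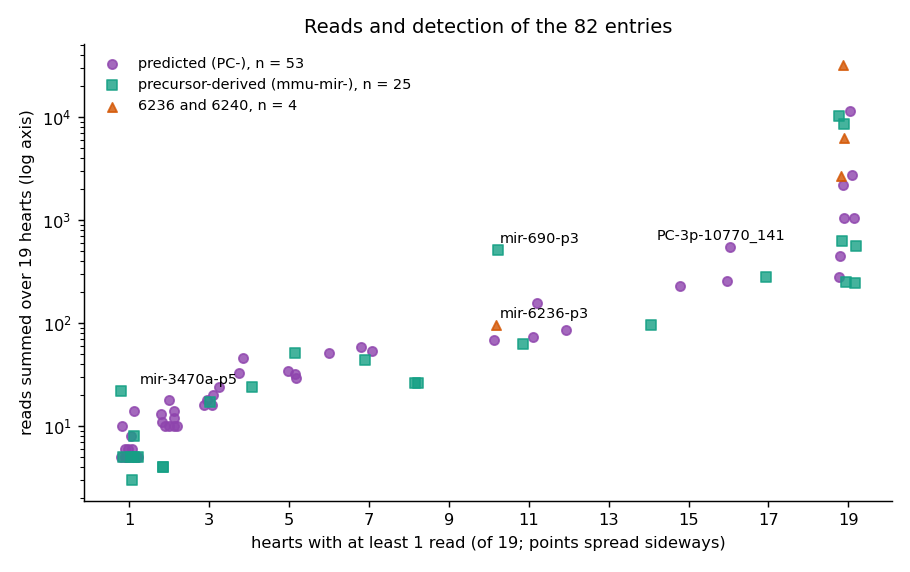
Reads summed over 19 hearts (log axis) against the number of hearts with at least 1 read, 1 point per entry, coloured by class. The 16 entries found in all 19 hearts hold most reads, 24 entries sit at 1 heart, and mir-690-p3 stands high for an entry found in 10 hearts.

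Detection followed the number of reads, as the plot of reads against hearts shows. Reads were present in all 19 hearts for 16 entries (19.5%, against 56.0% of the other entries), and in 1 heart only for 24 entries (29.3%, against 11.3%). Of these 24, 22 held at most 10 reads. They fell in controls (6), in isoproterenol hearts (6) and in hearts of both drugs (12), with at most 5 in a heart (953) and none in 6 hearts. A 0 in these tables can stand for a few reads: of the 1558 values of the 82 entries, 962 were 0, 96 were exactly 5 and 22 were 1 to 4, and the latter belonged to 6 entries.

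Depth and make-up of the libraries set the scale. The listed reads per library ran from 3166774 (957, both drugs) to 6548879 (955, both drugs), and miR-1a-3p, the microRNA of cardiac and skeletal muscle, held 28.3% to 50.6% of them, so the libraries carry the labelled tissue. The 6 entries of the red blood cell microRNAs miR-451a, miR-144 and miR-486 summed to between 27430 and 35130 scaled reads in control hearts, between 18528 and 26358 in isoproterenol hearts and between 23117 and 33064 in hearts of both drugs. Between controls and isoproterenol hearts these sums did not overlap, and their part in the results below was not tested. Scaled reads are raw reads divided by a library factor (a trimmed mean of log ratios) with a geometric mean of 1.

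Of all listed reads, the 3 classes together held 0.104% ± 0.0547 (SD, n = 6) in controls, 0.0854% ± 0.0484 (n = 6) with isoproterenol and 0.0866% ± 0.0303 (n = 7) with both drugs. Predicted entries held 0.0230% ± 0.00570, 0.0213% ± 0.00477 and 0.0241% ± 0.00833 in the same order, and precursor-derived entries 0.0220% ± 0.00612, 0.0241% ± 0.00242 and 0.0224% ± 0.00692. The differences between group means were smaller than the SD within every group in both classes. The entries of Mir6236 and Mir6240 held 0.0589% ± 0.0497 in controls, 0.0400% ± 0.0433 with isoproterenol and 0.0401% ± 0.0204 with both drugs, and in this class the SD was of the size of the mean in controls and isoproterenol hearts. These shares are given with no test.

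**Figure D2:**
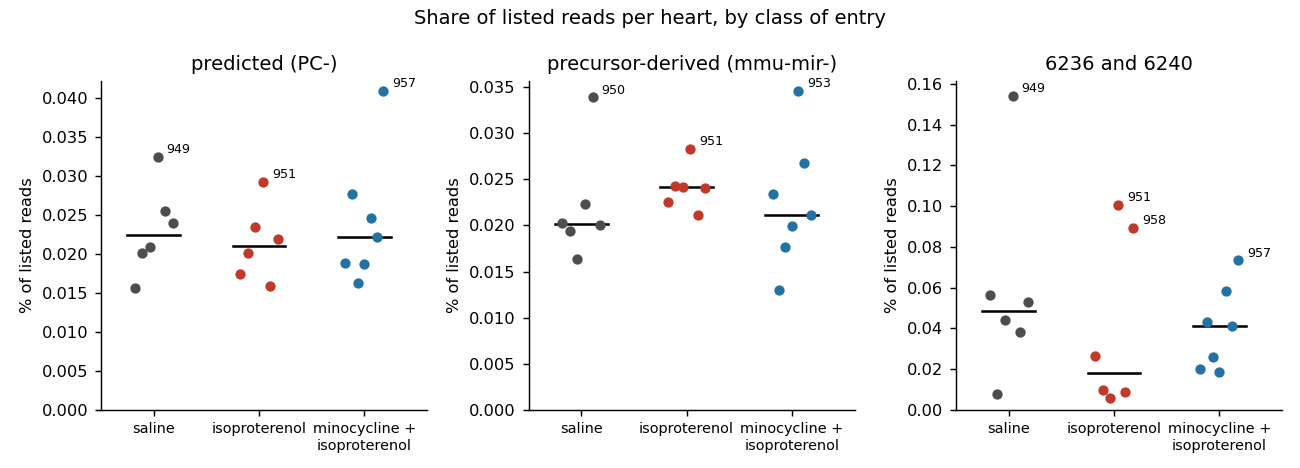
Share of the listed reads per heart in each class (% of listed reads), 1 point per heart and a line at the group median, with the highest hearts labelled by animal number. The groups overlap in every class, and the widest spread is that of Mir6236 and Mir6240, from 0.00592% to 0.154%.

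Hearts differed far more than groups in the reads of Mir6236 and Mir6240. The share was highest in control 949, at 0.154% (exact 95% binomial interval 0.150% to 0.158%, which covers counting error only), and lowest in isoproterenol 948, at 0.00592% (0.00526% to 0.00665%). Isoproterenol hearts 951 and 958 held 0.101% and 0.0892%, whereas isoproterenol hearts 943 and 954 held 0.00948% and 0.00850% and control 944 held 0.00766%. High and low hearts thus stood within the same group among both controls and isoproterenol hearts. With both drugs the range was narrower, from 0.0184% to 0.0734%, the highest being 957. Shallower libraries tended to hold a larger share: Pearson's r between listed reads and the share was -0.50 (permutation p = 0.035, two-sided) and Spearman's rho -0.54 (permutation p = 0.019) over 19 hearts. Without the 2 libraries farthest from the median depth r was -0.51, and within the groups it was -0.52, -0.49 and -0.84. Listed reads are also the denominator of the share, so a negative relation can arise from that alone, and the permutation does not remove it. The part of depth in the share was not tested further.

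The main entry, mmu-mir-6240-p3_1ss17GT, ran from 381 raw reads through a median of 1852 to 4702 in controls. Isoproterenol hearts gave 257 through 853 to 3327, and hearts of both drugs 1004 through 1749 to 1996. The 3 ranges overlapped widely, with the group of both drugs inside the range of the controls. Its log2 fold change was -1.09 (SE 0.68, limma adjusted p = 0.24) for isoproterenol against control, 0.67 (SE 0.54, limma adjusted p = 0.63) for both drugs against isoproterenol and -0.44 (SE 0.57, limma adjusted p = 0.62) for both drugs against control. None of these passed the test, leaving out 1 library moved the first from -1.53 (without 944) to -0.73 (without 948) with no call, and each standard error was more than 0.5 on the log2 scale.

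For mmu-mir-6236-p5 the raw reads ran from 33 through a median of 285 to 1362 in controls. They ran from 6 through 84 to 1141 in isoproterenol hearts, and under both drugs from 79 through 172 to 560. Its highest heart, 949, stood 286-fold above its lowest, 954, in scaled reads, the largest such ratio among the named entries with reads in every heart. For mmu-miR-6240_L-1R-6 the ranges were 11 to 569, 12 to 336 and 58 to 172 raw reads, with medians of 120.5, 74.5 and 103, and 949 stood 55.9-fold above 948. The least abundant, mmu-mir-6236-p3_1ss9AG, had 95 reads in 10 hearts, of which 26 came from 949, and was tested in no comparison. Neither mmu-mir-6236-p5 (log2 fold change -1.71, SE 1.24, limma adjusted p = 0.32) nor mmu-miR-6240_L-1R-6 (-1.26, SE 0.99, limma adjusted p = 0.36) passed the test for isoproterenol against control. Leaving out 1 library moved the first from -2.46 (without 958) to -0.96 (without 954) and the second from -1.93 (without 944) to -0.80 (without 949), with none called, and neither passed it in the other comparisons (limma adjusted p from 0.63 to 0.74).

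These entries varied together across hearts. On the log2 scale over 19 hearts, Pearson's r was 0.97 between mmu-mir-6240-p3_1ss17GT and mmu-miR-6240_L-1R-6, 0.94 between mmu-mir-6240-p3_1ss17GT and mmu-mir-6236-p5, and 0.93 between mmu-miR-6240_L-1R-6 and mmu-mir-6236-p5. Spearman's rho was 0.98, 0.95 and 0.92. Each permutation p was 2e-05 (two-sided, 100000 resamples, also after Benjamini-Hochberg adjustment over 6 pairs), the smallest these resamples can give. Without the 2 hearts farthest from the median r was 0.97, 0.95 and 0.94, and within the groups it lay between 0.84 and 0.99. The ratio was not constant, since mmu-mir-6236-p5 had from 1.21% (954) to 34.3% (958) of the raw reads of mmu-mir-6240-p3_1ss17GT.

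A predicted entry, PC-3p-10770_141 (cGTGGATCgcctcagctgc, seed in capitals), followed the same hearts. It had 149 raw reads in 949, 73 in 958 and 55 in 951, and none in 944, 943 and 954, which were low in Mir6236 and Mir6240. In 948, the lowest heart for those entries, it had 7. Over all 369 entries with at least 10 scaled reads in at least 6 hearts, those most like mmu-mir-6240-p3_1ss17GT were mmu-miR-6240_L-1R-6, mmu-mir-6236-p5 and PC-3p-10770_141 (Spearman's rho 0.91), then miR-486a-3p_R+1, a red blood cell microRNA (0.83), and after it miR-1249-3p (0.55). PC-3p-10770_141 was picked for its likeness after its values were seen, so no p is given for it. The raw reads of miR-486a-3p_R+1 were 1724 in 949, 1550 in 951 and 1293 in 958, against 754 to 906 in 944, 943, 948 and 954. These are raw reads and are not corrected for depth, which was 6548879 listed reads in 955 (1611 reads of miR-486a-3p_R+1) and 3166774 in 957 (644 reads). No other entry of miR-451a, miR-144 or miR-486 was among the 6 entries most like mmu-mir-6240-p3_1ss17GT. The part of miR-486a-3p_R+1 in the pattern was not tested.

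**Figure D3:**
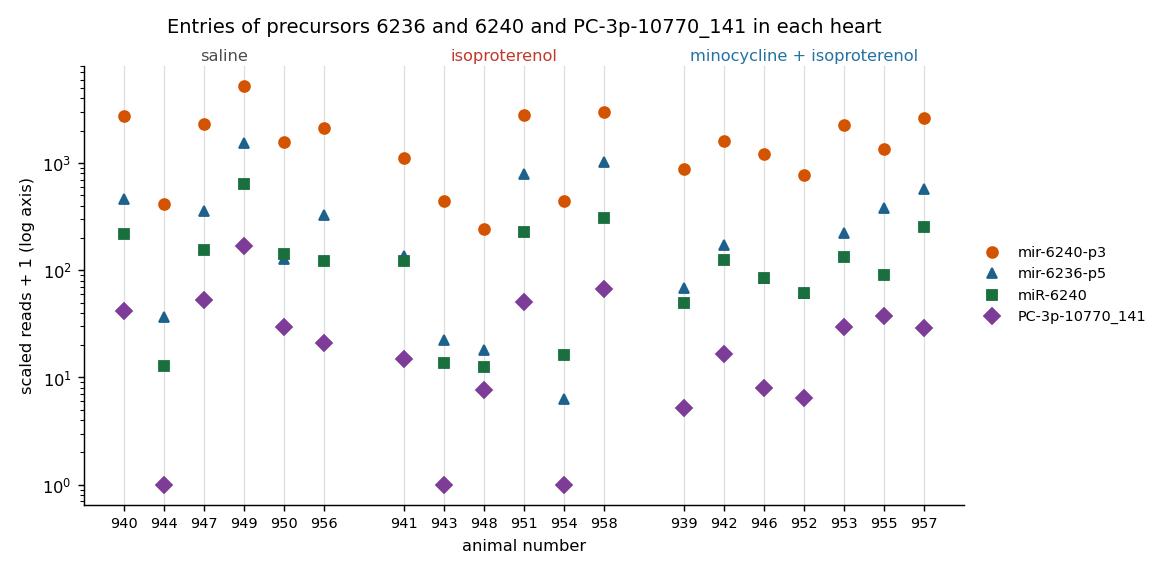
Scaled reads plus 1 (log axis) of the 3 commonest entries of precursors Mir6236 and Mir6240 and of PC-3p-10770_141 in each of 19 hearts, grouped by treatment and labelled by animal number. All 4 are high in 949, 951 and 958 and low in 944, 943, 948 and 954, and a point at 1 means no read.

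Few of the 82 entries passed a test of change with treatment. A test needs reads, and 60 of the 82 entries, with at most 95 reads each, passed the filter (10 scaled reads or more in a number of libraries equal to the size of the smaller group) in no comparison. For isoproterenol against control, 19 entries were tested and 3 were called by limma at an adjusted p below 0.05 (15.8%), where 37.1% of all 356 entries tested were called. Of the 3, 1 was called higher, where 21.1% of all entries tested were, and 2 were called lower, where 16% were. The median log2 fold change was -0.04 over the 19 and 0.01 over all entries. The shares of called entries among the 19 were thus below those of the whole table, a description with no test. They were not matched for level or spread, on which the chance of a call depends.

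PC-5p-6568_262 (tTAAGAGGagggggtggaca, seed in capitals) fell with isoproterenol. Its raw reads ran from 16 through a median of 33.5 to 49 in controls and from 7 through 15.5 to 32 in isoproterenol hearts, with overlapping groups. Scaled reads averaged 37.5 ± 12.1 (SD, n = 6) and 16.01 ± 8.69 (n = 6), a log2 fold change of -1.27 (SE 0.36, limma adjusted p = 0.015), and all 6 isoproterenol hearts lay below the control mean. The call remained without any of the 12 libraries (highest limma adjusted p = 0.040). Both drugs gave 7 through 20 to 41 raw reads, and against control the log2 fold change was -1.07 (SE 0.34, limma adjusted p = 0.032), with 7 of 7 hearts below the control mean. That second call was lost without control 940, 944, 947, 949 or 950 or hearts 946, 953 or 955 of both drugs (highest limma adjusted p = 0.085), when scaled to total reads (limma adjusted p = 0.069) and without the filter on low reads (limma adjusted p = 0.061).

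PC-5p-2147_1406 (aGTCTTACagtccttacca) also fell with isoproterenol. Its raw reads ran from 69 through 84 to 109 in controls and from 56 through 72 to 96 in isoproterenol hearts, so the groups overlapped. The scaled means were 95.2 ± 16.8 (SD, n = 6) and 66.5 ± 14.6 (n = 6), a log2 fold change of -0.52 (SE 0.16, limma adjusted p = 0.024), with 6 of 6 isoproterenol hearts below the control mean. Leaving out control 944 or 949 or isoproterenol heart 941 ended the call (limma adjusted p from 0.053 to 0.069), as did scaling to total reads (-0.35, limma adjusted p = 0.28). That scaling moved the median of all entries by 0.17 on the log2 scale in this comparison and turned the split of calls from 75 higher and 57 lower to 78 and 5, so the value relative to the median changed little.

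The entry mmu-mir-341-p3, the shifted read of miR-341-3p shown above, rose with isoproterenol. Its raw reads ran from 8 through 15 to 32 in controls and from 21 through 46 to 64 in isoproterenol hearts. The scaled means were 18.3 ± 9.76 (SD, n = 6) and 37.6 ± 15.9 (n = 6), a log2 fold change of 1.03 (SE 0.37, limma adjusted p = 0.042), and 6 of 6 isoproterenol hearts exceeded the control mean although the groups overlapped. The call lay close to the threshold and ended when control 940, 944, 950 or 956 or isoproterenol heart 941, 943, 948 or 954 was left out (limma adjusted p from 0.052 to 0.091). It also ended with voom weights (limma adjusted p = 0.071) and without the filter on low reads (limma adjusted p = 0.071). With both drugs the raw reads ran from 10 through 26 to 57, and the difference from control was 0.58 (SE 0.34, limma adjusted p = 0.24).

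**Figure D4:**
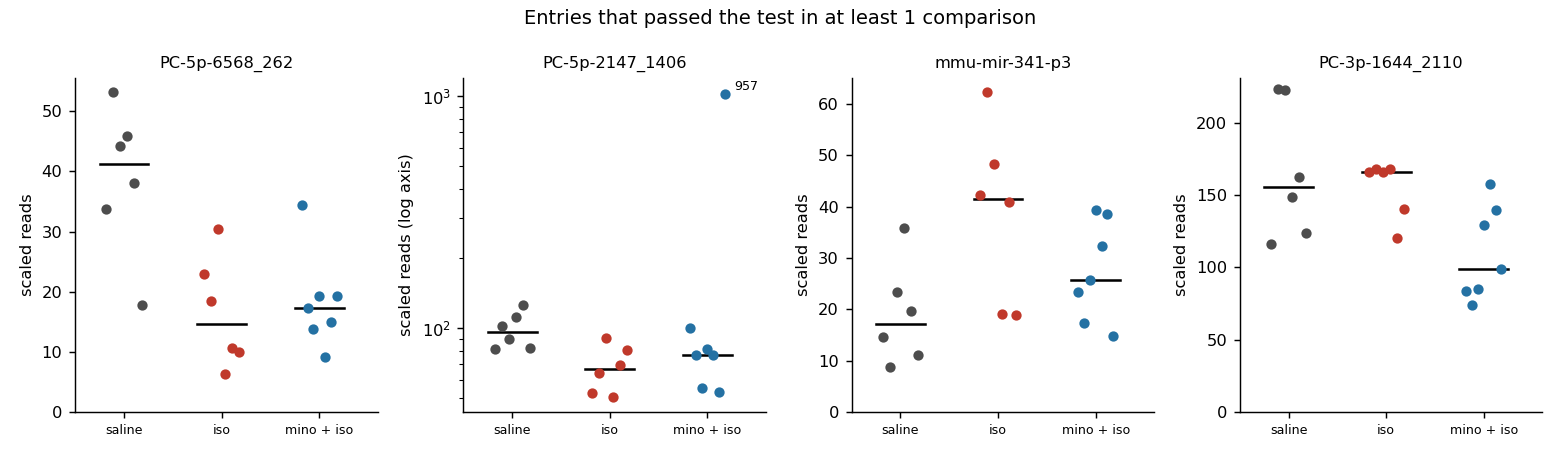
Scaled reads of the 4 entries that passed the test in at least 1 comparison, 1 point per heart with a line at the group median, for saline, isoproterenol (iso) and minocycline plus isoproterenol (mino + iso). The groups overlap in each panel, and the panel of PC-5p-2147_1406 has a log axis because heart 957 reached 1029.

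Adding minocycline to isoproterenol changed none of the 20 entries tested at an adjusted p below 0.05, by limma with a trend or with voom weights, where 0.275% of all 363 entries tested were called. At an unadjusted p below 0.05 there were 2 (10%), where 11.3% of all entries reached it. The lowest p belonged to PC-3p-1644_2110 (cGGAGCTTgcctggcgtctctgt), whose raw reads ran from 135 through 174 to 186 with isoproterenol and from 67 through 100 to 206 with both drugs (log2 fold change -0.54, SE 0.18, limma adjusted p = 0.24). The second was mmu-mir-142a-p5, with 561 through 632 to 679 raw reads and 236 through 487 to 903 (-0.43, SE 0.20, limma adjusted p = 0.43). In scaled reads the isoproterenol hearts ran from 507 to 619 and those of both drugs from 218 to 612, so the groups overlapped and no heart of both drugs lay above the highest isoproterenol heart. The 3p strand of the same precursor, miR-142a-3p_R-1, gave -0.14 (SE 0.19, limma adjusted p = 0.78). The third was mmu-mir-341-p3 (-0.44, SE 0.32, limma adjusted p = 0.60).

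For both drugs against control, which shares its controls and its hearts of both drugs with the comparisons above, 22 entries were tested and 2 were called, both lower (9.09%), where 20.3% of all 369 entries tested were called and 9.49% were lower. PC-5p-6568_262 is described above. PC-3p-1644_2110 ran from 103 through 137 to 206 raw reads in controls, with scaled means of 166 ± 47.0 (SD, n = 6) in controls and 110 ± 32.3 (n = 7) with both drugs. It fell by 0.60 on the log2 scale (SE 0.19, limma adjusted p = 0.027), and 7 of 7 hearts lay below the control mean. The call was lost without control 944, 947 or 950 or hearts 939, 942, 946 or 957 of both drugs (highest limma adjusted p = 0.10), and under scaling to total reads, which moved the median of all entries by 0.22, it was -0.38 (limma adjusted p = 0.19). In isoproterenol against control the same entry gave -0.04 (SE 0.17, limma adjusted p = 0.89). Under scaling to total reads the split of calls over all entries was 78 higher and 3 lower, against 40 and 35, and the 1 member called was PC-3p-5559_327, which was higher.

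The headers of the authors' deposited table list a raw but no normalized column for isoproterenol heart 954. The authors' deposited table of isoproterenol against control gives an unadjusted p below 0.05 for 6 of its 68 entries of these classes, where 29.1% of the authors' deposited table reach it. Beside the 3 entries called here, the authors' deposited table lists PC-3p-5559_327 (log2 fold change 0.43, p = 0.0288), mmu-mir-3102-p3 (-0.18, p = 0.0485) and mmu-mir-452-p5 (p = 0.0325). The last was listed at 0 in every control and at no more than 8 reads in an isoproterenol heart, and limma called it when the filter on low reads was dropped. With the filter it was not tested. For both drugs against isoproterenol the authors' deposited table gives such a p for 2 of 75 entries, where 7.29% of that authors' deposited table reach it, namely PC-3p-1644_2110 (-0.50, p = 0.0122) and mmu-mir-142a-p5 (-0.36, p = 0.0499).

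PC-3p-966_5189 (tAACGTGTgagtgtgtgtttt), the commonest predicted entry, ran from 432 through 625.5 to 775 raw reads in controls. Isoproterenol hearts gave 495 through 589.5 to 709, and hearts of both drugs 286 through 555 to 969. Its differences from control were -0.34 (SE 0.14, limma adjusted p = 0.072) with isoproterenol and -0.39 (SE 0.15, limma adjusted p = 0.061) with both drugs, and neither passed the test. The first was called without control 940 or isoproterenol heart 951, and the second without control 940 (limma adjusted p = 0.024) or without heart 942 (0.013), the highest of its group. The entry mmu-mir-3102-p3, in effect a mature microRNA under a precursor name, ran from 349 through 455 to 520, from 394 through 482 to 507 and from 252 through 372 to 649. PC-3p-2555_1049, the look-alike of miR-23a-3p, ran from 30 through 47 to 61, from 45 through 56.5 to 69 and from 32 through 67 to 83. The entry mmu-mir-3970-p5_1ss7TA, the look-alike of let-7i-5p, ran from 7 to 15, from 9 to 16 and from 13 to 19.

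PC-3p-5559_327 ran from 30 through 37 to 53 raw reads in controls, from 45 through 66 to 81 with isoproterenol and from 41 through 56 to 85 with both drugs, and PC-3p-7944_205 held 280 reads over all hearts. Among precursor-derived entries mmu-mir-324-p3_1ss21GT held 619, mmu-mir-328-p5 280 and mmu-mir-374b-p3 253, and none of the 3 was called in a comparison. The usual strand of the precursor of mmu-mir-328-p5, miR-328-3p, held 48387 reads and fell with isoproterenol (log2 fold change -0.33, SE 0.09, limma adjusted p = 0.012), whereas mmu-mir-328-p5 gave 1.32 (SE 0.83, limma adjusted p = 0.25). The difference between these 2 values was not tested. Raw reads of mmu-mir-328-p5 were 0 in controls 944 and 947, 11 to 17 in the other controls and 6 to 46 in isoproterenol hearts. Its groups overlapped, and its log2 value rests in part on the controls with no read. For Mir324 the 5p strand held 1713 reads and gave 0.31 (SE 0.14, limma adjusted p = 0.089).

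Spread between hearts was larger, by the median, than in other entries of like level at a mean of 10 scaled reads or more. The coefficient of variation was taken within each group, and an entry was given the median over the groups in which it had reads. This coefficient had a median of 28.3% over the 7 entries of these classes with a mean of 100 to 1000 scaled reads, against 14.3% over 110 other entries. Below a mean of 10 scaled reads it was 245% over 61 entries against 184% over 222 others. It was 44.1% over 13 entries with 10 to 100 scaled reads against 29.8% over 118 others, and 67.1% for mmu-mir-6240-p3_1ss17GT, the only one above 1000, against a median of 9.38% over 109 others. Among entries with a mean of at least 10 scaled reads, at the low end were mmu-mir-3102-p3 (11.8%), PC-3p-2555_1049 (16.5%), PC-3p-966_5189 (18.5%) and PC-3p-5559_327 (19.8%). At the high end of the same entries were mmu-mir-690-p3 (174%), PC-3p-10770_141 (115%), mmu-mir-6236-p5 (114%) and mmu-miR-6240_L-1R-6 (102%). These figures are descriptions with no test. Entries were matched only by their mean over all hearts, which a single high heart can raise into a higher level. Heart 953 held 469 scaled reads of mmu-mir-690-p3, where the next highest heart held 35.1. Heart 957 likewise raised the means of PC-5p-10903_139 and PC-5p-2147_1406. The comparison with other entries of like level was not repeated without such hearts.

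Some entries stood at least 2-fold higher in 1 heart than in any other. An entry was counted if a heart held at least 10 raw reads of it and its scaled reads plus 1 were at least 2-fold those of every other heart, a count chosen after the values were seen. This held for 12 of the 39 entries with 10 reads in a heart (30.8%), against 8 of 422 other entries (1.90%). An entry could enter this count through its high heart alone, as mmu-mir-3470a-p5_1ss18TC, PC-5p-39238_14 and PC-3p-46577_10 did. The shares were also not matched for level, since 109 of the other entries and 1 of these had a mean above 1000 scaled reads. They therefore do not show that the classes differ in this respect. The 12 fell in only 4 hearts: 4 in control 949, 4 in heart 953, 3 in heart 957 and 1 in heart 939. The last 3 hearts were all of both drugs. Of the 8 other entries, 2 were in 949 and 2 in 953 as well. Heart 952 had 2, heart 942 had 1 and control 947 had 1. The 4 in 949 included mmu-miR-6240_L-1R-6, mmu-mir-6236-p3_1ss9AG and PC-3p-10770_141, the last of which followed the same hearts as Mir6236 and Mir6240. These need not be separate cases. Hearts 957 and 953 were the 2 shallowest libraries, with 3166774 and 3483677 listed reads.

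In heart 957, PC-5p-2147_1406 had 696 raw reads, where the other 6 hearts of both drugs had 56 to 119. This heart held 41.6% of the scaled reads of the entry over 19 hearts and stood 8.17-fold above the next heart. Because of it the difference of both drugs from isoproterenol was 0.65 (SE 0.54, limma adjusted p = 0.63), and without 957 it was 0.11 (limma adjusted p = 0.79). Against control the value was 0.11 (SE 0.47, limma adjusted p = 0.87) with 957 and -0.39 (limma adjusted p = 0.12) without it. PC-5p-10903_139 (aGGTGGGAtcccgaggcc) was high in the same heart, with 77 raw reads against 0 to 25 in the other 18, and PC-5p-30931_24 had 18 of its 46 reads there.

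In heart 953, mmu-mir-690-p3 had 363 of its 507 raw reads, where the next highest counts were 36 in isoproterenol heart 943 and 28 in heart 952 of both drugs and 9 hearts had none. This was 78.2% of the scaled reads of the entry, 13.4-fold above the next heart. The same heart alone held all 22 reads of mmu-mir-3470a-p5_1ss18TC, all 14 of PC-5p-39238_14 and all 10 of the mitochondrial PC-3p-46577_10. In heart 939, mmu-mir-6481-p3_1ss19GA, which matches mitochondrial transfer RNA, had 27 of its 51 reads. In control 949, PC-5p-26543_33 had 23 of its 59 reads, beside the high entries of Mir6236 and Mir6240, and PC-5p-29984_26 had 15 of its 51 reads there and 15 in control 940.

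**Figure D5:**
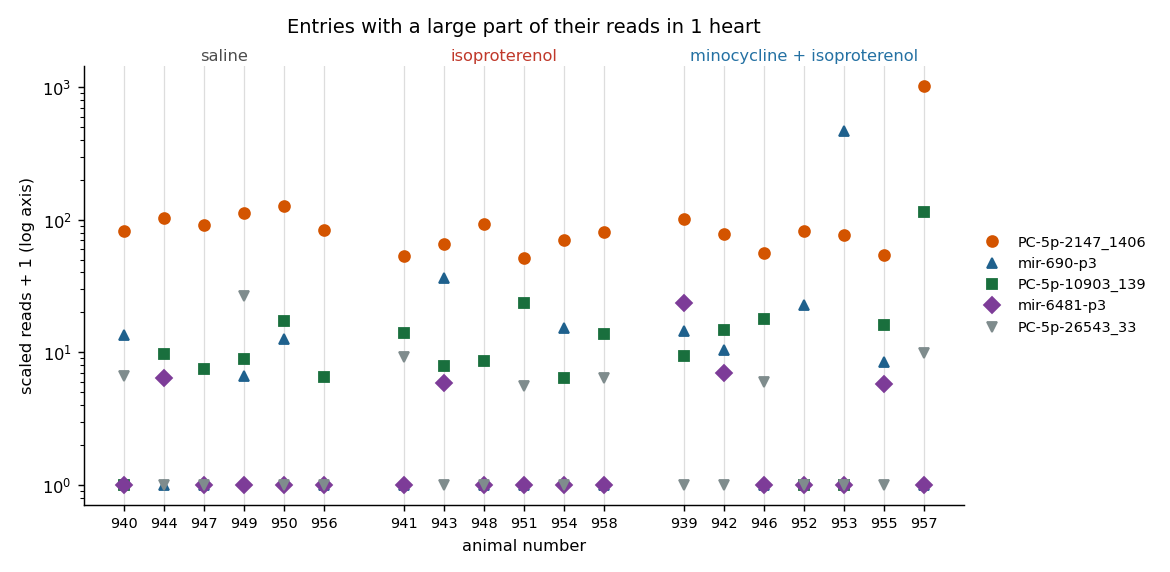
Scaled reads plus 1 (log axis) of 5 entries with a large share of their reads in 1 heart, in each of 19 hearts grouped by treatment and labelled by animal number. PC-5p-2147_1406 and PC-5p-10903_139 peak in 957, mir-690-p3 in 953, mir-6481-p3 in 939 and PC-5p-26543_33 in 949, and a point at 1 means no read.

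Some names shared a sequence. The entries mmu-mir-1934-p3_1ss8TA and mmu-mir-3473f-p3_1ss3AG had the same bases and 26 reads each, equal in every heart. The entries mmu-mir-669m-1-p5 and mmu-mir-669m-2-p5 had the same bases as each other and as miR-669b-5p_R+2, with 4 reads each. Each of these pairs is thus 1 measurement under more than 1 name, and all 4 entries were too rare to be tested.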

How the data were processed

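Small RNA of 19 whole mouse hearts was read from a pair of deposited tables. Per the labels' protocols, RNA came from the Qiagen miRNeasy kit, and ACGT101-miR removed adapter dimers, junk, low-complexity reads, structural RNA and repeats. The sources used here do not give the mapper, genome build or microRNA release. For each entry the authors deposited a raw read count per library. They are whole numbers written with quoted commas, which the unit check could not take as counts, so no count model was run. Per the file headers, the authors also deposited a log2 ratio of group means and a p-value with no adjustment, used only where the authors' deposited table is named.

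The tables were joined by name, and an entry absent from 1 was set to 0 there. Library factors came from trimmed means of log ratios (trim shares 0.3 and 0.05). Entries that reached 10 scaled reads in a number of libraries equal to the smaller group's size were tested with limma 3.58.1 (R 4.3.3, trended empirical Bayes) on log2(scaled reads + 1), with Benjamini-Hochberg adjustment over all entries tested. Both drugs were compared with control in 1 fit of 19 libraries. A fold change on this scale can understate that of a scarce entry. Sequences were compared with an incomplete set of RefSeq strands and with GENCODE M21, by exact match and by edit distance (edlib 1.3.9.post1). Correlations were tested by permutation with scipy 1.17.1. The fit was tested on simulated data. Libraries, pseudocount, scaling, filter, weights and duplicated entries were varied.

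Entries were named if called in a comparison, if of Mir6236 or Mir6240, if among the 8 with most reads in a class, if among the 6 (of at least 50 reads) with the largest share in 1 heart, or if among the 3 lowest p-values of a comparison. Mature strands of the same precursors were added. Entries outside this rule, named for a sequence match, a shared sequence, reads in 1 heart or the authors' deposited table, were chosen after their values were seen. The members, lists and rules were chosen with earlier results of these data known. A sequence of 1 precursor is not reported here.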

Additional observations from a re-analysis of the deposited data

Results flagged for a closer look

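Of 81 groups checked (24 named entries and 3 class shares in each of 3 treatment groups), 17 had a heart that stood apart from the rest of its group by Dixon's criterion at the 95% level. In groups not picked for a high heart chance flags about 1 in 20, but 6 of the entries were named for their large share in 1 heart and supply 8 of the 17, so the number is a description only. In 3 of the groups a single heart had reads and all others had none. The values below are scaled reads unless given as a percentage, with the range of the other hearts of the group.

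Control 949 was the highest heart for PC-3p-10770_141 at 166.8 (others 0 to 52.1), for PC-5p-26543_33 at 25.8 (others 0 to 5.64), for mmu-miR-6240_L-1R-6 at 637 (others 11.9 to 218), for mmu-mir-6236-p3_1ss9AG at 29.1 (others 0 to 7.89) and for mmu-mir-6236-p5 at 1525 (others 35.8 to 461). Its share of reads in the class of Mir6236 and Mir6240 was 0.154% (others 0.00766% to 0.0565%). Control 950 had the highest share of precursor-derived reads, 0.0339% (others 0.0164% to 0.0224%). Control 944 alone had reads of mmu-mir-6481-p3_1ss19GA among controls, 5.42.

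Among isoproterenol hearts, PC-5p-29984_26 had reads only in 958, at 4.51, and mmu-mir-6481-p3_1ss19GA only in 943, at 4.87.

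Among hearts of both drugs, 957 was the highest for PC-5p-2147_1406 at 1029 (others 52.9 to 99.7), for PC-5p-10903_139 at 113.8 (others 0 to 16.8) and for mmu-miR-6240_L-1R-6 at 254 (others 48.6 to 133). Heart 953 was the highest for mmu-mir-690-p3 at 469 (others 0 to 21.6). Heart 939 was the highest for PC-5p-6568_262 at 34.3 (others 9.05 to 19.3) and for mmu-mir-6481-p3_1ss19GA at 22.6 (others 0 to 6.03), and 942 for PC-3p-966_5189 at 834.9 (others 423 to 566).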

How the results depend on the processing

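The count of entries called for isoproterenol against control was 3, from 2 to 3 under the other settings (without the filter mmu-mir-452-p5 was called in place of mmu-mir-341-p3), and from 1 (without control 944 or isoproterenol heart 941) to 4 when a library was left out. For both drugs against isoproterenol it was 0 under every setting run, the leave-one-out fits included. For both drugs against control it was 2, but 1 when scaled to total reads, 1 without a filter on low counts, and from 0 (without control 944, 947 or 950 or heart 946 of both drugs) to 3 (without heart 942) when a library was left out. The cause of these changes was not tested. Of the single log2 fold changes, PC-3p-1644_2110 in isoproterenol against control turned from -0.04 to 0.13 with total-read scaling and to 0.056, 0.054 and 0.041 without control 944, control 947 or isoproterenol heart 954 (range without each library -0.11 to 0.056). PC-5p-2147_1406 in both drugs against control turned from 0.11 to -0.052 with voom weights and to -0.39 without heart 957 (range -0.39 to 0.31). The value of mmu-miR-6240_L-1R-6 in both drugs against control turned from -0.39 to 0.11 without control 949 (range -1.02 to 0.11). Leaving miR-1a-3p out of the total raised the predicted shares to 0.0400%, 0.0349% and 0.0386% (control, isoproterenol, both drugs), the precursor-derived shares to 0.0383%, 0.0398% and 0.0358% and the shares of Mir6236 and Mir6240 to 0.101%, 0.0636% and 0.0639%, since the total is smaller. Without each library in turn the shares stayed within 0.0197% to 0.0255% (predicted), 0.0197% to 0.0247% (precursor-derived) and 0.0279% to 0.0691% (Mir6236 and Mir6240). No paired analysis was possible because the animal numbers are unique and no label pairs the groups. Depth limits 60 of the 82 entries, which were too scarce to test, and a 0 can hide a few reads.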
